A study of Homo sapiens with 4 samples.

Results

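TRiC, also called CCT, is the chaperonin of the eukaryotic cytosol, and its genes and those of its phosducin-like cofactors were described here in 4 RNA-seq libraries. The genes were chosen by symbol, with earlier results of these data known but by a rule that sets no threshold on a measured value, as the 8 subunit genes TCP1, CCT2, CCT3, CCT4, CCT5, CCT6A, CCT7 and CCT8 and the cofactor genes PDCL and PDCL3. These 10 were found among 57979 genes with values, each on 1 line. All 10 were among the 13246 genes tested, which had an average above 1 FPKM. FPKM are fragments scaled to the length of the transcript and to the size of the library. The libraries came from polyadenylated RNA of cells labelled HepG2, a line from a human liver cancer, in 2 wild-type replicates and 2 TXNDC9 knockout replicates. Both groups carry the same line name and differ in the labels only by the TXNDC9 knockout. The knockout was made with CRISPR-Cas9 delivered by the lentiCRISPRv2 vector with guides against the start of TXNDC9, and infected cells were sorted. Whether the sequenced cells were 1 clone or a mixed population, and whether the wild-type cells carried an empty vector, was not given for these libraries.

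TRiC is built from a pair of stacked rings, and each ring holds 1 copy of each subunit. It encloses newly made proteins and folds them with the energy of ATP, and actin, the tubulins and many WD40-repeat proteins depend on it. The phosducin-like proteins bind to TRiC and adjust how it handles its substrates. PDCL assists the assembly of G protein beta-gamma dimers with TRiC, PDCL3 belongs to a related branch of the family, and TXNDC9, the gene targeted in this study, encodes a further phosducin-like protein that binds TRiC.

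The labelled cell type was checked before the members were compared. Of 9 hepatocyte markers (ALB, AFP, APOA1, APOB, APOH, TTR, FGB, SERPINA1 and HNF4A), none reached an average of 1 FPKM. Their highest single value was 0.449 FPKM, for AFP in a wild-type library, and 2 of them were listed at 0 in every library. Their sum was 0.351 to 0.716 FPKM in wild-type and 0.0479 to 0.121 FPKM in knockout libraries. The transcripts that define a hepatocyte-derived line were thus near 0, which goes against the label, and the cells are called by their label only. Of 11 markers of immune, endothelial and fibroblast-like cells, 5 were tested and 3 were listed at 0 throughout, with sums of 57.8 to 59.6 FPKM in wild-type and 44.4 to 46.6 FPKM in knockout libraries. Most of that sum was COL1A1, at up to 31.5 FPKM, and COL3A1, a fibrillar collagen with a log2 fold change of −0.70 (SE 0.13). COL1A2, however, was listed at 0 in every library, and ACTA2 was at 4.15 and 4.77 against 3.46 and 3.79 FPKM. The immune marker CD68 was at 3.38 and 5.16 against 5.77 and 6.9 FPKM. PDGFRB, a growth factor receptor of mesenchymal cells, rose from 1.08 and 0.735 to 3.0 and 2.62 FPKM (log2 fold change 1.55, SE 0.27). The part of these markers in the results below was not tested.

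The libraries also differed in scale. Summed over all genes, FPKM came to 805816 and 971102 in wild-type replicates 1 and 2 but only to 535973 and 568279.5 in the knockout replicates. Giving every library an equal sum (TPM) shifted the median log2 fold change over tested genes from −0.09 to 0.59. A negative log2 fold change smaller in size than that shift can therefore turn positive on the TPM scale, and several members are also given relative to the median of all genes. How the deposited values were scaled between libraries is not given in the sources used here. Depth is unknown because the values are not counts.

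Expression was compared on log2(FPKM + 0.1) with limma, with Benjamini-Hochberg adjustment over all 13246 genes. A call required both an adjusted p under 0.01 and a difference of 2-fold or more. Over all tested genes, 15.3% were called lower and 14.2% were called higher in the knockout libraries. At an adjusted p under 0.01 with any fold, 27.1% were lower and 23.7% were higher. Both knockout values lay below both wild-type values in 45.9% of tested genes and above them in 40.1%. The study's legends describe RNA-seq values as coming from independent experiments, but they name more experiments than there are libraries in a group here. How the libraries relate to those experiments is not stated, so these p-values measure the spread between the libraries, part of which may be technical. With 2 libraries a group, the smallest p of an exact permutation test is 0.333.

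TXNDC9 (ENSG00000115514; hg38 chromosome 2, 99318982 to 99340702, minus strand) was examined first as a check of the labels. Wild-type libraries held it at 35.1 and 37.3 FPKM, and knockout libraries at 21.9 and 27.6 FPKM. Both knockout libraries were below both wild-type libraries, but the transcript was still present in each. The log2 fold change of −0.55 (SE 0.14) did not pass the threshold, with a Benjamini-Hochberg adjusted p of 0.0145 from limma, and on the TPM scale it was 0.12. A value for the whole gene does not show edited bases or the protein, so it checks the RNA level only.

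The 8 subunits were abundant transcripts in every library. In wild-type cells their mean levels ran from 211 FPKM for TCP1 to 917 FPKM for CCT5, and the highest subunit was 4.61 and 4.10 times the lowest in the 2 libraries. CCT5 led in all 4 libraries and TCP1 was the lowest in all 4. In order of mean wild-type level came CCT5, CCT3, CCT7, CCT6A, CCT8, CCT2, CCT4 and TCP1. The ranges of CCT3, CCT7 and CCT6A overlapped between neighbours, as did those of CCT2 and CCT4, so those neighbours could not be ranked. In the knockout cells the order was CCT5, CCT3, CCT6A, CCT2, CCT7, CCT8, CCT4 and TCP1. The ranges of CCT3 and CCT6A overlapped there, as did those of CCT7 and CCT8, so neither pair could be ranked. In the knockout cells CCT7 lay below CCT2 in both libraries, while in wild-type cells it lay above CCT2 in both. FPKM is scaled to transcript length, which is what allows these levels to be set side by side, although the members differ in GC content as well.

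**Figure D1:**
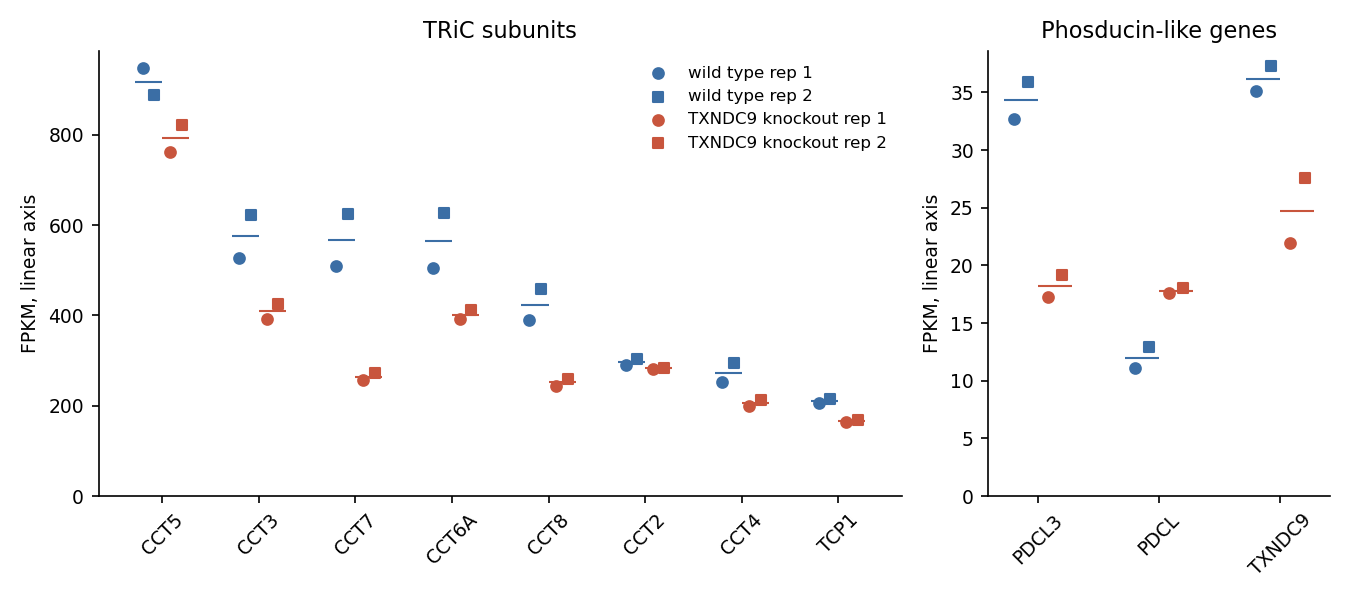
FPKM of the 8 TRiC subunits and of PDCL3, PDCL and TXNDC9 in each library on linear axes, with a point for each library and a short line for the mean of its group. CCT7 shows a wide gap between the groups (509 and 624 against 256 and 272 FPKM), the groups of CCT2 nearly touch, and PDCL is the gene with higher knockout values.

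CCT7, the eta subunit, was the subunit with the largest difference and the only subunit that was called. CCT7 (ENSG00000135624; hg38 chromosome 2, 73233420 to 73253021, plus strand) was at 509 and 624 FPKM in wild-type cells and at 256 and 272 FPKM in knockout cells. The groups were far apart next to the spread within them, with means of 566 ± 80.8 and 264 ± 11.4 FPKM (SD, n = 2 each). CCT7 fell by 1.10 on the log2 scale (SE 0.15, 95% interval −1.48 to −0.71, Benjamini-Hochberg adjusted p = 0.00181 from limma). Relative to the median of all tested genes its log2 fold change was −1.01, and 14.4% of tested genes had a lower value. Over 11 other settings the Benjamini-Hochberg adjusted p for CCT7 from limma ran from 0.000112 to 0.011, and its log2 fold change from −1.24 to −0.41. The call was lost without the filter on low values (adjusted p = 0.011 from limma), on the TPM scale and after correction for transcript length and GC content, where the log2 fold changes of −0.41 and −0.72 were under 2-fold. It was also lost without wild-type replicate 2 (log2 fold change −0.95) and without either knockout replicate (adjusted p = 0.0559 and 0.0459 from limma).

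CCT8, the theta subunit, had the next largest difference. CCT8 (ENSG00000156261; hg38 chromosome 21, 29055805 to 29073797, minus strand) was at 389 and 459 FPKM in wild-type cells and at 244 and 260 FPKM in knockout cells. The groups did not overlap, and the knockout mean was 0.594 of the wild-type mean. The log2 fold change of −0.75 (SE 0.14, 95% interval −1.10 to −0.39) had a Benjamini-Hochberg adjusted p of 0.00526 from limma. CCT8 therefore passed the p threshold but not the 2-fold threshold. On the TPM scale its log2 fold change was −0.07 (adjusted p = 0.445 from limma, within a range of 0.000797 to 0.445 over 11 settings), and after correction for length and GC content it was −0.63.

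CCT3, CCT6A, CCT4 and TCP1 formed a middle range, in which no subunit had an adjusted p under 0.01. CCT3, the gamma subunit (hg38 chromosome 1, 156308968 to 156367873, minus strand), was at 528 and 623 FPKM in wild-type and at 392 and 426 FPKM in knockout cells, a log2 fold change of −0.49 (SE 0.15). CCT6A, a zeta subunit (chromosome 7, 56051685 to 56063989, plus strand), was at 504 and 626 against 392 and 412 FPKM, a log2 fold change of −0.48 (SE 0.16). In both genes the knockout values were the lower ones without overlap, while wild-type replicate 2 stood above wild-type replicate 1. CCT4, the delta subunit (chromosome 2, 61868085 to 61888671, minus strand), was at 252 and 294 against 200 and 213 FPKM, a log2 fold change of −0.40 (SE 0.13). TCP1, the alpha subunit that gave the complex its older name (chromosome 6, 159778498 to 159789703, minus strand), was at 206 and 216 against 164 and 168 FPKM, a log2 fold change of −0.35 (SE 0.11). The Benjamini-Hochberg adjusted p-values of these 4 genes from limma lay between 0.0313 for CCT3 and 0.0394 for CCT6A. On the TPM scale all 4 had the opposite sign, from 0.19 for CCT3 to 0.33 for TCP1.

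CCT5 and CCT2 had the smallest differences on the deposited scale. CCT5, the epsilon subunit (chromosome 5, 10249929 to 10266389, plus strand), was at 947 and 888 FPKM in wild-type and at 763 and 822 FPKM in knockout cells. Its log2 fold change was −0.21 (SE 0.15, 95% interval −0.59 to 0.17, Benjamini-Hochberg adjusted p = 0.263 from limma). CCT2, the beta subunit (chromosome 12, 69585426 to 69601570, plus strand), was at 291 and 304 against 281 and 284 FPKM. Its knockout values were also below both wild-type values, but only just, with a log2 fold change of −0.07 (SE 0.12, 95% interval −0.37 to 0.22, adjusted p = 0.615 from limma). CCT2 stood in the middle of all tested genes, of which 50.6% had a lower log2 fold change. On the TPM scale the log2 fold change of CCT5 was 0.47 and that of CCT2 was 0.61, and after correction for length and GC content that of CCT2 was 0.04. The same correction took CCT5 to −0.48 (adjusted p = 0.0214 from limma), a larger difference than the −0.20 of CCT3.

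Counted as a group, 1 of the 8 subunits was called lower and 0 were called higher, against 15.3% and 14.2% of all tested genes, so the share called was close to that background. No subunit had a log2 fold change above 0 on the deposited scale, so none was higher at an unadjusted p under 0.05 in limma either. At an adjusted p under 0.01 with any fold 2 of 8 were lower, against 27.1% of all tested genes. All 8 had both knockout values below both wild-type values, against 45.9% of tested genes. The median log2 fold change of the 8 was −0.44, which is −0.35 relative to all tested genes, and on the TPM scale it was 0.24 while the median of all genes was 0.59. Other abundant transcripts lay lower still. The 1232 tested genes with a mean above 100 FPKM, a limit chosen after the values were seen, had a median log2 fold change of −0.83, and 39.4% of them were called lower. In bulk RNA, fewer cells of a type and less RNA per cell cannot be told apart.

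**Figure D2:**
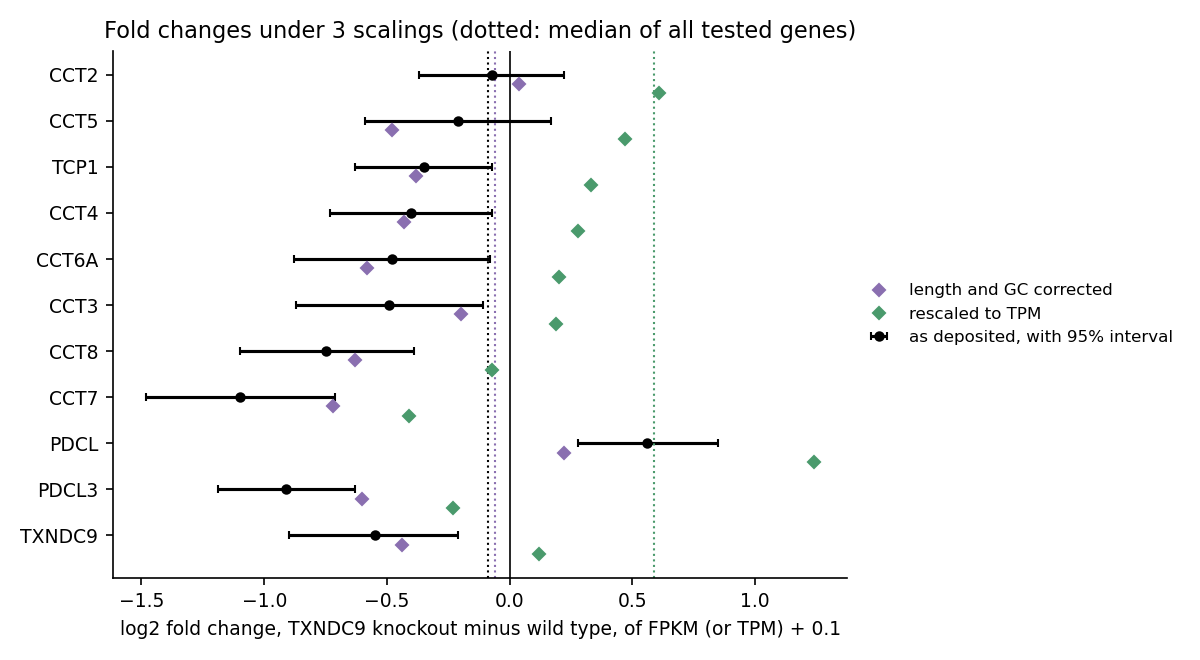
Log2 fold change (knockout minus wild type) of the 10 members and TXNDC9 from the values as deposited (black, with 95% intervals from limma), after correction for transcript length and GC content (purple) and after rescaling to TPM (green), with dotted lines at the median of all tested genes under each. The order of the subunits from CCT2 to CCT7 is much the same on the deposited and TPM scales, but TPM moves all points to the right by about the same amount, so that 6 of the 8 subunits lie above 0 there.

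The composition of the subunit pool does not depend on the scale of a library, since each subunit is divided by the sum of all 8 in the same library. That sum was 3626 and 4033 FPKM in wild-type cells and 2692 and 2856 FPKM in knockout cells, or 3829 ± 288 and 2774 ± 116 FPKM (SD, n = 2 each), a ratio of 0.724. As a percentage of all FPKM it was 0.450 and 0.415 in wild-type and 0.502 and 0.503 in knockout cells. The summed TRiC level was thus lower in the knockout libraries in FPKM and higher as a share of all FPKM, without overlap in either case.

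Within that pool CCT7 made up 14% and 15.5% in wild-type cells and 9.5% in each knockout library. CCT8 made up 10.7% and 11.4% against 9.1% in each knockout library. These were the subunits with lower shares in the knockout cells, and their groups did not overlap. CCT5 held 26.1% and 22.0% in wild-type and 28.3% and 28.8% in knockout cells, and CCT2 held 8.0% and 7.5% against 10.5% and 9.9%. TCP1, at 5.7% and 5.4% against 6.1% and 5.9%, and CCT4, at 7.0% and 7.3% against 7.4% and 7.5%, were also higher without overlap, by less than 1 percentage point. The shares of CCT3 and CCT6A overlapped between the groups. A share rises when another falls, so the 8 shares are not independent, and they are given without a test, since an exact permutation test at this size cannot go below 0.333.

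**Figure D3:**
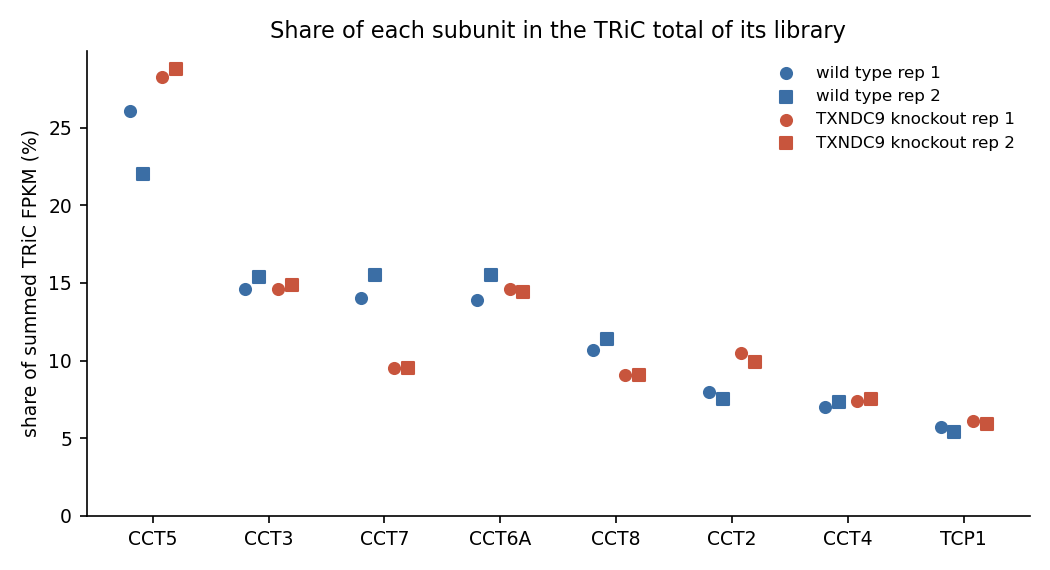
Share of each subunit in the summed FPKM of the 8 TRiC subunits of its library, in percent, with a point for each library. The knockout points of CCT7 and CCT8 lie below both wild-type points, those of CCT5, CCT2, CCT4 and TCP1 lie above them, and those of CCT3 and CCT6A overlap with them.

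Ratios between subunits restate the same values in other terms. Here CCT7 and CCT8, which differed most on the deposited scale, are set against CCT2, which differed least. The ratio of CCT7 to CCT2 was 1.75 and 2.05 in wild-type against 0.909 and 0.958 in knockout cells, a log2 change of −1.02. The ratio of CCT8 to CCT2 was 1.34 and 1.51 against 0.869 and 0.915. Both ratios were above 1 in each wild-type library and below 1 in each knockout library. CCT7 and CCT3 had the highest GC content among the subunits, at 51.6% and 50.6% of the canonical transcript, while the other 6 lay between 41.5% for CCT8 and 44.5% for CCT5. After correction for length and GC content the log2 change of the ratio of CCT7 to CCT2 was −0.76. The order of CCT3 and CCT5 in log2 fold change also turned under that correction.

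The cofactors PDCL3 and PDCL differed in opposite directions. PDCL3 (ENSG00000115539; hg38 chromosome 2, 100562993 to 100576739, plus strand) was at 32.7 and 35.9 FPKM in wild-type cells and at 17.3 and 19.2 FPKM in knockout cells. Both knockout values were far below the wild-type values, with a log2 fold change of −0.91 (SE 0.11, 95% interval −1.19 to −0.63, Benjamini-Hochberg adjusted p = 0.00119 from limma). PDCL3 passed the p threshold and, at a ratio of 0.531, lay just short of 2-fold. PDCL (ENSG00000136940; chromosome 9, 122798389 to 122828588, minus strand) was at 11.1 and 12.9 FPKM in wild-type and at 17.6 and 18 FPKM in knockout cells. Here both knockout values were the higher ones, with a log2 fold change of 0.56 (SE 0.12, 95% interval 0.28 to 0.85, adjusted p = 0.00688 from limma), a ratio of 1.48 that was also short of 2-fold.

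The ratio of PDCL3 to PDCL was 2.94 and 2.78 in wild-type against 0.980 and 1.07 in knockout cells, a log2 change of −1.48. PDCL3 was therefore the more abundant transcript of the pair in wild-type cells, and the pair was near equal in knockout cells. The canonical transcript of PDCL3 is short, at 1038 nt, and that of PDCL is 3017 nt, next to a median of 2866.5 nt over tested genes. After correction for length and GC content the log2 change of this ratio was −0.82, with PDCL3 at −0.60 (adjusted p = 0.00663) and PDCL at 0.22 (adjusted p = 0.176, both from limma). Over 11 settings the adjusted p from limma ran from 0.000117 to 0.123 for PDCL3 and from 0.000247 to 0.176 for PDCL. On the TPM scale PDCL3 was at −0.23 and PDCL at 1.24, where PDCL was called higher. Centring each library on its median brought PDCL3 to −1.05, where it was called lower.

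Next to TRiC itself, both cofactors were minor transcripts. The mean subunit level was 13.9 and 14 times that of PDCL3 in wild-type cells and 19.5 and 18.6 times in knockout cells, so the gap was wider in both knockout libraries. For TXNDC9 the same ratio was 12.9 and 13.5 against 15.4 and 12.9, which overlapped. PDCL3 lies 1222290 bases from TXNDC9 on chromosome 2, where CCT4 and CCT7 also lie.

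The 250 bases before the RefSeq start site (GRCh38.p14) are shown for CCT7, the called subunit, for CCT2, the subunit that differed least, and for PDCL3 and PDCL, which differed in opposite directions. Capitals mark the box CCAAT (written ATTGG where it lies on the other strand) and the GC box GGGCGG (likewise written CCGCCC). CCT7 is at chr2:73234058-73234307 (plus strand), CCT2 at chr12:69585209-69585458 (plus), PDCL3 at chr2:100562743-100562992 (plus) and PDCL at chr9:122828589-122828838 (minus). The whole CCT7 stretch lies inside the GENCODE span of the gene, which begins at 73233420, upstream of the RefSeq start used here. The CCT2 stretch runs into the GENCODE span of its gene, which begins at 69585426.
CCT7: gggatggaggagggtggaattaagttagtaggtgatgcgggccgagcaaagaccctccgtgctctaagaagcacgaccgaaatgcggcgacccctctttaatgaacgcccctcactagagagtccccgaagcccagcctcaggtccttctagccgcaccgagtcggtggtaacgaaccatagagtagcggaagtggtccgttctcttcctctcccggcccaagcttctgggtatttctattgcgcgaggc
CCT2: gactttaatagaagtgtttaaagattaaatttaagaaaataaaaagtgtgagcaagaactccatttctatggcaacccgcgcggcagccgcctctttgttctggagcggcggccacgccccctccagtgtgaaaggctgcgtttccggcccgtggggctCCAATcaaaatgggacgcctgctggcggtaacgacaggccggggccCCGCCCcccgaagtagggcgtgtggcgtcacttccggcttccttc
PDCL3: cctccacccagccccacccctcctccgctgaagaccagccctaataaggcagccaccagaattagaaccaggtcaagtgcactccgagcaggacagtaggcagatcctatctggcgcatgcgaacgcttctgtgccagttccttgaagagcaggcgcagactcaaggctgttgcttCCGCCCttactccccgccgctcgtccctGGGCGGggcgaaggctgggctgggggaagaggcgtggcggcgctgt
PDCL: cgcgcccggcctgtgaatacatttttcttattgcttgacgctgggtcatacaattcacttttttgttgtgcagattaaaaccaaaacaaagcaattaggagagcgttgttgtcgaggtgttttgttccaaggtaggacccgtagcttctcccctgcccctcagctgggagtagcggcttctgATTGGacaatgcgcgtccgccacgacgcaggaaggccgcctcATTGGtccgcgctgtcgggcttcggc

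The CCT2 stretch held CCAAT from 91 bases and a GC box from 45 bases before the start. PDCL3 held GC boxes from 74 and 46 bases before it, PDCL held CCAAT from 68 and 26 bases before it, and CCT7 held no match in these 250 bases. For the counts that follow, windows of 300 bases that add the first 50 transcribed bases were searched on both strands, and 9 of the 10 members had such windows, 11 in all (CCT6A had none). The motifs were the E-box CACGTG that MYC and MAX bind, its variant CACGCG, the box CCAAT, the GC box named above and GAANNTTC, a core of heat-shock elements, and none of these contains another. CACGTG was in 0 of the 11 windows, against 7.26% of 35116 windows of all genes. CACGCG was in 3 windows (CCT3, CCT8 and PDCL3) against 11.4%, and GAANNTTC in 2 (TCP1 and CCT2) against 6.77%. CCAAT was in 5 windows (TCP1, CCT2, CCT3, CCT8 and PDCL) against 34.6%. GGGCGG was in 7 windows (TCP1, CCT2, CCT3, CCT7, CCT8 and PDCL3) against 45%. The GC box counted for CCT7 thus lay outside the 250 bases printed above. These matches describe letters in the sequence and are not measured binding.

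Other genes of the TRiC and phosducin families were read for comparison. PDC and PDCL2, phosducin-like genes of retina and germ cells, and CCT6B, the testis form of the zeta subunit, stayed under 1 FPKM in every library, and CCT8L1P and CCT8L2 were listed at 0. MKKS and BBS10, chaperonin-like proteins that help to assemble the BBSome, went in opposite directions. MKKS was at 37.9 and 45.3 FPKM against 21.2 and 20.2 FPKM, a log2 fold change of −1.0 (SE 0.12, adjusted p = 0.00122 from limma) that was just short of 2-fold. BBS10 rose from 2.85 and 1.56 to 8.5 and 7.47 FPKM (log2 fold change 1.87, SE 0.28, adjusted p = 0.00237 from limma). After correction for length and GC content the call of BBS10 was lost (log2 fold change 1.26, adjusted p = 0.0157 from limma), and MKKS was called lower instead (−1.99, adjusted p = 0.00168). BBS12 did not reach an average of 1 FPKM.

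Prefoldin hands unfolded actin and tubulin to TRiC. Of its 6 subunit genes, 3 were called lower and none higher, and the median log2 fold change was −1.12. The shares over all tested genes were 15.3% and 14.2%, with a median of −0.09. PFDN4 fell from 115 and 163 FPKM to 37.2 and 46.4 FPKM, and PFDN2 from 203 and 286 FPKM to 76.7 and 81.2 FPKM (log2 fold changes −1.72, SE 0.20, and −1.61, SE 0.18). In the prefoldin-like complex, which works with HSP90 on large assemblies, 3 of 9 tested genes were called lower and 0 higher, with a median of −0.84. UXT fell from 348 and 443 FPKM to 142 and 162 FPKM, and the ATPase gene RUVBL2 from 216 and 218 FPKM to 91.3 and 94.5 FPKM.

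The tubulin cofactors take tubulin from TRiC and join it into dimers. Of 7 tested genes in this list, which also holds ARL2 and TBCEL, 3 were called lower and 1 higher, with a median of −0.96. The shares of all tested genes were 15.3% and 14.2%. The gene called higher was TBCEL (log2 fold change 1.037), a TBCE-like gene, while TBCE itself was at −0.215. ARL2, a small GTPase of this pathway, fell from 151 and 194 FPKM to 57.8 and 65.3 FPKM, and TBCB from 114 and 145 FPKM to 49.5 and 51.7 FPKM.

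Among the clients themselves, 4 of 14 tested actin, actin-related and tubulin genes were called lower and 2 higher, with a median of −0.65. Over all tested genes 15.3% were called lower and 14.2% higher. TUBB3 fell from 17.5 and 22.8 FPKM to 4.99 and 5.26 FPKM, and TUBB4B from 637 and 731 FPKM to 205 and 236 FPKM. The higher ones were ACTR2 and ACTR3, which encode the actin-related core of the Arp2/3 complex. Some tubulin genes are near-identical in sequence, so the split of reads between those is uncertain. Of 28 tested WD40-repeat and other clients, 8 were called lower and 4 higher, with a median of −0.02, a balance that turned to 0 lower and 8 higher on the TPM scale. STRN and STRN3, striatins of a PP2A complex, rose from 3.63 and 3.16 to 9.85 and 10.1 FPKM and from 4.61 and 3.77 to 12.5 and 11.4 FPKM.

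The list of the cytosolic HSP70 and HSP90 chaperones, which can pass proteins on to TRiC, also holds their co-chaperones and the transcription factor HSF1. Of its 11 tested genes, HSPA1A and HSF1 were called lower and none had a higher call, with a median of −0.43 that was near the −0.44 of the TRiC subunits. HSPA1A fell from 180 and 254 FPKM to 68.9 and 77.6 FPKM, although its near-identical copy HSPA1B makes its value uncertain. HSF1, the master regulator of the heat-shock response, fell from 89.9 and 98.1 FPKM to 40.1 and 41.7 FPKM. The mitochondrial chaperonin pair split, in that HSPE1 fell from 620 and 726 FPKM to 233 and 244 FPKM while HSPD1 was at 493 and 458 against 428 and 461 FPKM. The background for each of these counts is the 15.3% of all tested genes called lower and the 14.2% called higher, and no list was tested as a set. Among the 1232 tested genes with a mean above 100 FPKM, 39.4% were called lower. Their median log2 fold change was −0.83. PFDN2, UXT, RUVBL2, ARL2, TUBB4B, HSPA1A, HSPE1 and HSPD1 lie above that limit too. After correction for length and GC content 2 prefoldin, 2 tubulin cofactor, 2 actin and tubulin and 3 WD40 and other client genes were called lower, and 0 of the prefoldin-like complex and of the HSP70 and HSP90 chaperones. The correction left no gene of these lists called higher. On the TPM scale the medians were −0.44 for prefoldin, −0.16 for the prefoldin-like complex, −0.28 for the tubulin cofactors, 0.03 for actin and tubulin and 0.25 for the HSP70 and HSP90 chaperones, all below the 0.59 of all genes, while that of the WD40 and other clients was 0.66 and lay above it. The calls moved with the scale too, to 1 lower and 0 higher for prefoldin, 0 and 0 for the prefoldin-like complex, 0 and 1 for the tubulin cofactors, 1 and 3 for actin and tubulin, 0 and 8 for the WD40 and other clients and 0 and 0 for the HSP70 and HSP90 list. For the mitochondrial pair, 1 gene was called lower after the length and GC correction. On the TPM scale the calls of that pair were 0 and 0, with a median of −0.11.

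**Figure D4:**
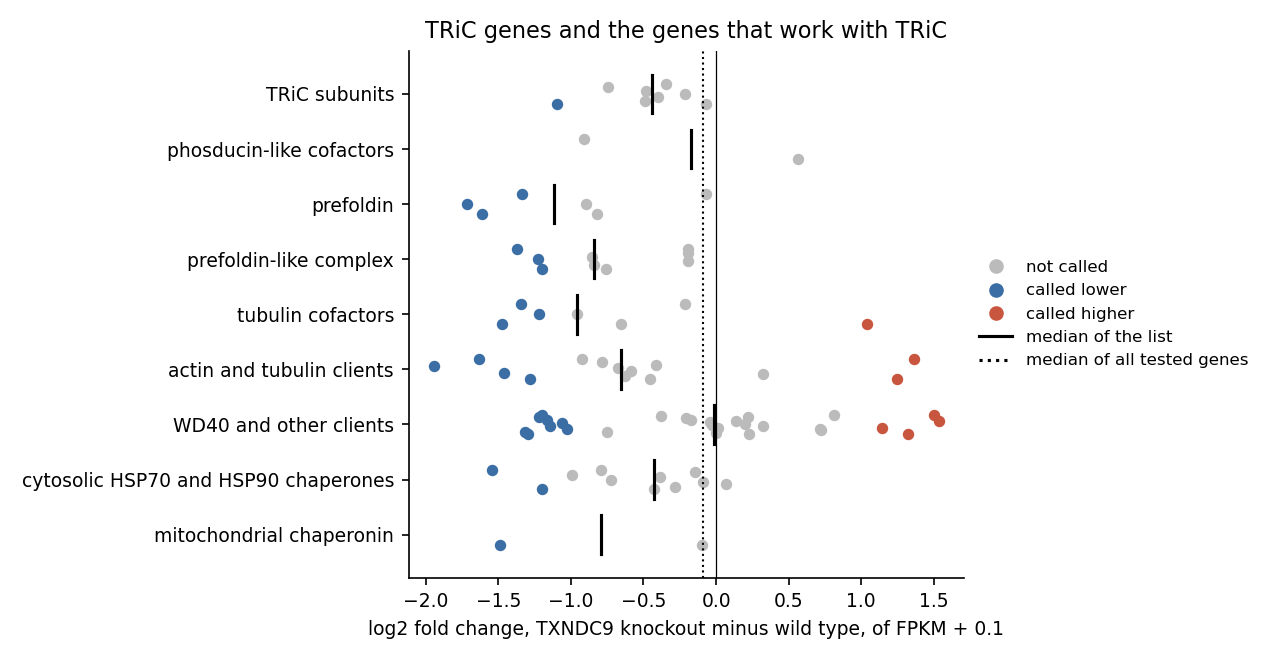
Log2 fold change (knockout minus wild type, FPKM + 0.1) of each tested gene in the 2 member groups and 7 lists of genes that work with TRiC, coloured by call, with a bar at the median of each list and a dotted line at the median of all tested genes (−0.09). One TRiC subunit is called lower, and the median of prefoldin (−1.12) lies further to the left than that of TRiC (−0.44).

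The 5 genes whose centred log2 values lay closest to the mean profile of the 8 subunits, among 445 tested genes of 188 to 753 FPKM and over the 4 libraries, were GPI, ARF4, EIF3E, HMGB1 and PEBP1. Their distances were 0.029 to 0.057 on the log2 scale. GPI, for instance, was at 357 and 391 FPKM against 257 and 273 FPKM. With 4 libraries such a likeness rests mostly on the difference between the groups.

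Reads of some members could also come from other genes. By name, 18 genes were copies of the members, with a member symbol or CCT6 followed by P and a number. Of these, 10 were listed at 0 in every library and 6 reached at most 0.237 FPKM. The other 2, CCT6P1 and CCT6P3, were singled out after their values were seen and lie far under CCT6A, at 3.02 and 1.19 against 3.03 and 2.84 FPKM and at 4.18 and 5.06 against 2.92 and 2.86 FPKM. In GENCODE release 44, TCP1 shares 454 exonic bases with ACAT2 on the opposite strand, CCT4 shares 275 with the long non-coding gene ENSG00000236498, and CCT5 shares 1734 with ENSG00000271980. ACAT2 was at 34.1 and 36.9 against 46.1 and 47.5 FPKM, ENSG00000236498 at 41.6 and 64.1 against 14.9 and 14.2 FPKM, and ENSG00000271980 at 42.1 and 63.8 against 30.6 and 33.1 FPKM. The levels of these overlapping genes were found by identifier rather than by symbol, so they are less certain than those of the members. The use of strand in counting is not given in the sources used here, so reads of these antisense pairs cannot be told apart.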

How the data were processed

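Polyadenylated RNA of cells labelled HepG2 was sequenced in 2 wild-type and 2 TXNDC9 knockout libraries. The authors deposited 1 FPKM value per gene and library, and the submitters' processing notes name TopHat2, Cufflinks, Cuffdiff and hg38. Tool versions, strand settings and the normalization between libraries are not given in the sources used here. The deposited averages, fold changes, p-values and q-values were not used. Identifiers did not stand on the lines of their symbols, and genes were taken by symbol (57979 lines with values). Length, GC content, positions and overlapping genes were taken by identifier, after the identifiers were put back in order of first appearance. Of 56935 identifiers with a reference name, 34949 then had the symbol on their line, as did those of the members and TXNDC9. The other names differed, so the annotation of those lines is less certain.

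Members and lists were chosen with earlier results of these data known. The 13246 genes averaging over 1 FPKM entered limma 3.58.1 (R 4.3.3) as log2(FPKM + 0.1), a scale that understates changes of low genes, with all 4 libraries, a trended prior variance and Benjamini-Hochberg adjustment. A call needed an adjusted p under 0.01 and 2-fold. The code was tested on simulated data. Named genes were the members, TXNDC9, their relatives, copies above 1 FPKM, the 2 largest changes of each list and the 5 genes nearest to the subunits in profile. Others named were picked with their values known. The alternatives changed the pseudocount (1 or 0.01), filter (none or above 5 FPKM), scale (TPM or median centring), trend, threshold (0.05), replicate block and libraries, or removed the dependence on transcript length and GC content from a library by loess (span 0.3; 99% of genes annotated). That 99% counts every identifier with a known length, also where its name differed from the symbol on its line. The correction is less certain to that extent. Positions came from GENCODE release 44, and start-site sequences from RefSeq (GRCh38.p14). Files without counts give no depth, so no counting intervals are given. Python 3.11.15, pandas 2.3.3, numpy 2.4.6 and matplotlib 3.10.9 were used.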

Additional observations from a re-analysis of the deposited data

How the results depend on the processing

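Of the genes called, 2021 were lower and 1885 higher, and 48.3% of calls were higher. On the TPM scale 447 were lower and 4380 higher (90.7% higher). After correction for length and GC content 983 were lower and 826 higher, and 983 and 730 with the replicate block added. With an average above 5 FPKM 1220 were higher. Leaving out 1 library gave 0 to 2633 lower and 0 to 2136 higher. The 0 came from leaving out either knockout replicate, which leaves 1 knockout library that limma assumes to vary like the wild type. At an unadjusted p under 0.05 and 2-fold, 2022 and 2290 genes were then lower and 2066 and 1973 higher. No TRiC subunit was called lower without the filter, on the TPM scale or after the length and GC correction, with or without the block (0 in each), and with libraries left out the count was 0 to 1. At an unadjusted p under 0.05 and 2-fold, 1 subunit was lower without either knockout replicate.

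The median log2 fold change of the subunits was −0.44, 0.24 on the TPM scale and −0.58 with median centring, and −0.56 to −0.32 with libraries left out. Signs turned on the TPM scale for TCP1 (0.33), CCT2 (0.61), CCT3 (0.19), CCT4 (0.28), CCT5 (0.47), CCT6A (0.20) and TXNDC9 (0.12), and for CCT2 after the length and GC correction (0.04, also with the block). The knockout minus wild-type share ran from −0.7 to 0.2 percentage points for CCT3 and from −1.0 to 0.6 for CCT6A with libraries left out, turning without wild-type replicate 2. The cause of these differences was not tested.

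The deviations of same-numbered libraries had a correlation of −0.0904, and the replicate numbers were therefore not taken as pairs. With the replicate block 2146 genes were lower and 1960 higher, 1 TRiC subunit was lower, and TXNDC9 had an adjusted p of 0.00267 from limma. Depth could not be judged from FPKM.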
